A study of Rattus norvegicus with 18 samples.

Results

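The 8 genes of rat blood described here are Ido1, Wars1, Cd274, Ubd, Sod2, Cxcl16, Casp4 and Lgals9, which act in tryptophan use, immune checkpoints and the effector arm of the interferon response. They were found by matching the probes' RefSeq accessions to the 8 symbols. These gave 9 probes, 2 of them for Wars1, among 18355 probes that carried a gene symbol, or 8 of 15443 named genes. All 8 genes were well above background in the sample channel on each of the 18 arrays. The genes were chosen on their log2 ratios in these same arrays, so their differences between treated and control animals are given as descriptions, with standard errors and 95% intervals but no test.

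The arrays were Agilent 2-colour rat arrays of blood RNA from male Brown Norway (BN) rats, an inbred strain, and male Sprague Dawley (SD) rats, an outbred stock. Animals received procainamide, an antiarrhythmic drug that can cause a lupus-like syndrome in people, at 40 mg/kg, and control animals received sterile water. Blood was drawn from the eye's venous sinus once treatment had ended. Among BN rats 4 arrays held control RNA and 4 RNA from treated animals, and among SD rats 5 and 5. The study's stated purpose was to compare the drug's effects between strains. By the labels the sample was in Cy5, and Cy3 held water-treated replicate 1 of the same strain on every array, with no dye swap. Whether the arrays stand for different animals is not in the labels, so every p-value below measures only the spread between these samples.

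Ido1 encodes indoleamine dioxygenase, which opens the kynurenine route by breaking down tryptophan, and Wars1 encodes the cytoplasmic tryptophanyl-tRNA synthetase; interferon gamma is a known inducer of both. Cd274 encodes PD-L1, the ligand of the inhibitory receptor PD-1 on T cells, and Lgals9 encodes galectin-9, a secreted lectin that binds sugars on immune cells. The others serve effector functions: a ubiquitin-like modifier that sends proteins to the proteasome (Ubd), the manganese superoxide dismutase of mitochondria (Sod2), a membrane-bound chemokine and scavenger receptor (Cxcl16) and an inflammatory caspase that senses bacterial lipopolysaccharide in the cytosol (Casp4).

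The median Cy5 spot signal ranged from 997 to 3187 over the arrays, and the share of probes well above background from 73.4% to 87.1%. The BN control arrays shared slide 2 and scan day 2 with SD procainamide 4 and 5, the BN procainamide arrays had slide 3 and scan day 1, and all other SD arrays had slide 1 and scan day 1. Drug, slide and scan day therefore cannot be told apart within BN, and a model term for scan day rests on SD procainamide 4 and 5 against SD procainamide 1 to 3. All 11 neutrophil and all 12 T cell marker genes tested were above background on every array. Of 12 gland and eye genes listed, 7 were tested, and at least 6 of these were above background on every array of each group. Among them the tissue kallikrein genes Klk1 and Klk1b3 fell in BN, with log2 differences of -2.86 ± 0.20 and -3.86 ± 0.28 (both adjusted p = 2.61e-07 by limma), and Klk1 fell in SD by 0.71 ± 0.18 (adjusted p = 0.0421), while Klk1b3 in SD was at -0.69 (adjusted p = 0.155). The blood came from a site in the orbit, and the part of gland RNA in the values below was not tested. In whole blood, fewer cells of a type and less RNA per cell cannot be told apart. On the BN control 1 array, which by the labels compares an RNA with itself, some genes were far from 0, Lgals9 among them (described with that gene). On SD control 1, likewise an RNA against itself, Cd274 was at -0.69, Ubd at -0.55 and Ido1 at -0.44, while Casp4 was at 0.02 and Cxcl16 at 0.03.

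RefSeq promoter sequences (build GRCr8) were at hand for 6 of the 8 genes: Wars1, Cd274, Ubd, Sod2, Cxcl16 and Lgals9. The 250 bases before the start site were searched on both strands for the gamma-activated site TTCNNNGAA, for the core of the interferon-stimulated response element, which is GAAA, any 2 bases and GAAA again, and for the NF-kB consensus. Of 33469 promoters searched in the same way, 7.67% held the first, 3.41% the second, 6.33% the third and 16.3% at least 1 of them. The promoters of Ubd and Lgals9 each held 1 match, and those of the other 4 genes held none of these letters in the window. The 2 are shown because they belong to the genes with the highest and the lowest drug difference in BN. The capitals mark the match, which is the NF-kB consensus 15 to 6 bases before the start of Ubd, and the response element core, read on the opposite strand, 16 to 7 bases before the start of Lgals9.
Ubd, chr20:1392686-1392935, minus strand: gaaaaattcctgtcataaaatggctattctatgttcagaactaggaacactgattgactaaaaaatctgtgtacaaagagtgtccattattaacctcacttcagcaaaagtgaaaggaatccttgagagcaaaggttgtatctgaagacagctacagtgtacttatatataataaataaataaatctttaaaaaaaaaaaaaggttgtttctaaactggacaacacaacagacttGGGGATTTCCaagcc
Lgals9, chr10:64428071-64428320, minus strand: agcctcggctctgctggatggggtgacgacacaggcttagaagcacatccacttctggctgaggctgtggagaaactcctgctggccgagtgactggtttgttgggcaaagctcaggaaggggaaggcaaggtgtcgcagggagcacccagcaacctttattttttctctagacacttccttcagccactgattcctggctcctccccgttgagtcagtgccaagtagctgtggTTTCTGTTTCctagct
The motifs do not overlap another match in either window.

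In BN rats, 7 of the 8 genes had a higher mean log2 ratio with procainamide than with water, and 1, Lgals9, a lower one. The differences ran from -0.70 for Lgals9 to 2.76 for Ubd with a median of 1.18, where the median over 13612 tested genes was -0.019. For 6 genes every procainamide array was above every control array. Over all tested genes this held for 8.18%, and nothing is read from the count because the genes were chosen on these ratios. In SD rats the same 7 genes were higher and Lgals9 was again lower, from -0.21 to 2.12 with a median of 0.35 beside -0.0073 over all tested genes. The SD groups did not overlap for 3 genes, Wars1, Ubd and Cxcl16, and for 4.38% of all tested genes in that direction (in the lower direction 4.54%, and 11.8% in BN).

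**Figure D1:**
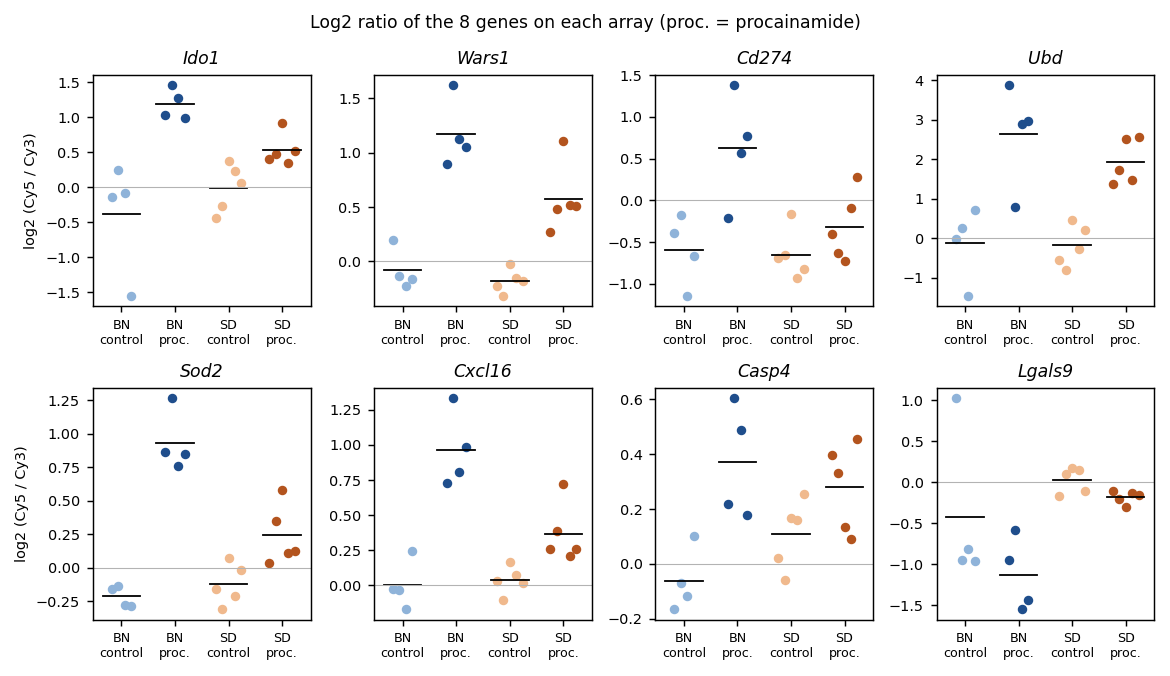
Log2 ratio of Cy5 to Cy3 (y axis) for each of the 8 genes on each array, by group (x axis), with points for arrays in replicate order and a line at the group mean. BN procainamide arrays lie above BN control arrays for every gene but Cd274, where 1 array overlaps, and Lgals9, which is lower and where BN control 1 stands apart at 1.02.

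Ido1 breaks down tryptophan in dendritic cells and macrophages. The log2 ratio of Ido1 was -0.14, 0.24, -0.09 and -1.55 on BN control arrays 1 to 4, and 1.03, 1.46, 1.27 and 0.99 on BN procainamide arrays 1 to 4. The lowest treated array was above the highest control array, and BN control 4 lay far below the other controls. The difference was 1.57 ± 0.28 (SE), or 2.97-fold (95% interval 1.96 to 4.49), and 1.18 without BN control 4. In SD rats the values were -0.44, -0.26, 0.37, 0.23 and 0.07 on control arrays 1 to 5 and 0.41, 0.48, 0.92, 0.35 and 0.51 on procainamide arrays 1 to 5. The SD groups overlapped by a narrow margin, since SD procainamide 4 lay just under SD control 3, and SD procainamide 3 was the highest. The SD difference was 0.54 ± 0.25, or 1.45-fold (1.00 to 2.10).

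Wars1 charges transfer RNA with tryptophan. Its log2 ratio was 0.20, -0.13, -0.22 and -0.16 on the BN control arrays and 0.90, 1.62, 1.13 and 1.05 on the BN procainamide arrays. The groups were well apart, with BN procainamide 2 the highest, as it was for 7 of the 8 genes. The difference was 1.25 ± 0.16, or 2.39-fold (1.88 to 3.03). SD control arrays were at -0.23, -0.32, -0.02, -0.15 and -0.18, and SD procainamide arrays at 0.27, 0.48, 1.11, 0.52 and 0.51. All 5 treated arrays were above all 5 controls, with SD procainamide 3 on its own at the top, and the difference was 0.76 ± 0.15, or 1.69-fold (1.36 to 2.09). In Cy5 alone the SD difference was 0.45, with Cy3 lower on the treated arrays. The second Wars1 probe gave 1.26 ± 0.17 in BN and 0.62 ± 0.15 in SD, so the probes differed little.

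Around these 2, the genes of the tryptophan and kynurenine route did not move as a group. Of 20 tested genes of the tryptophan and kynurenine route, 2 were higher and 2 lower in BN and 1 was higher and 1 lower in SD, by limma with Benjamini-Hochberg adjustment over all probes tested, as in every adjusted p below. The list's median difference was -0.036 in BN and 0.0032 in SD. Over all tested genes, 22.8% were called in BN (8.99% higher, 13.8% lower) and 3.18% in SD (1.43% higher, 1.76% lower). Nampt, which makes the NAD precursor nicotinamide mononucleotide, rose in BN by 1.00 ± 0.24 (adjusted p = 0.00703). Nadsyn1, the last enzyme of NAD synthesis, rose by 0.27 in BN (adjusted p = 0.0234) and 0.38 in SD (adjusted p = 0.00819). In BN the Nadsyn1 call was lost without BN control 1 (adjusted p = 0.0726) or BN procainamide 2 (adjusted p = 0.0674). The kynurenine aminotransferase Kyat1 fell by 0.48 in BN (adjusted p = 0.0133, and 0.0571 in Cy5 alone, at -0.29). The amino acid carrier Slc7a8 fell by 0.52 in SD (adjusted p = 0.0470), a call kept without only 2 of the 10 SD arrays and lost in Cy5 alone (-0.44, adjusted p = 0.0812). Ido2 was not analysed here. Of 22 aminoacyl-tRNA synthetases and partners other than Wars1, 3 were higher in BN and 0 in SD by limma, with medians of 0.14 and 0.12. The 3 were the synthetases for lysine (Kars1, 0.47 ± 0.09, adjusted p = 0.00170), glutamine (Qars1, 0.43 ± 0.10, adjusted p = 0.00566) and alanine (Aars1, 0.33 ± 0.09, adjusted p = 0.0206). The Aars1 call was lost without BN control 4, BN procainamide 2 or BN procainamide 4, at adjusted p from 0.0535 to 0.0818. At an unadjusted p under 0.05, 5 of the 22 passed in SD. The share of all tested genes at that p was not counted, and nothing is read from it. The median log2 ratio of the 22 was -0.060 to 0.030 on BN control and 0.050 to 0.229 on BN procainamide arrays. On SD control arrays it was -0.103 to 0.015 and on SD procainamide arrays 0.021 to 0.141. These medians thus did not overlap in either strain, by a narrow margin. Kars1 reached 0.46 to 0.54 on the BN procainamide arrays, where Wars1 reached 0.90 to 1.62.

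Cd274, the PD-1 ligand gene, had a log2 ratio below 0 on most arrays. These include control 1 of both strains, which by the labels compare an RNA with itself, so a ratio below 0 need not mean a level below the reference. Its log2 ratio was -0.39, -0.18, -1.14 and -0.67 on the BN control arrays and -0.21, 1.38, 0.57 and 0.78 on the BN procainamide arrays. 3 treated arrays were above every control, while BN procainamide 1 lay just under BN control 2. The difference was 1.23 ± 0.29, or 2.34-fold (1.53 to 3.57). In SD rats the controls were at -0.69, -0.65, -0.17, -0.93 and -0.82 and the treated arrays at -0.41, -0.63, -0.72, -0.09 and 0.28. The SD groups overlapped, with a difference of 0.34 ± 0.26, or 1.27-fold (0.866 to 1.85). The 2 highest SD procainamide arrays were those on slide 2, and among SD arrays of slide 1 the difference was 0.07 ± 0.16. The Cy3 signal of Cd274 also went with the slide, at 10.14 to 10.20 in the 8 SD arrays of slide 1, 9.66 to 9.88 in the 2 SD arrays of slide 2, 9.79 to 10.08 in BN on slide 2 and 9.57 to 9.66 in BN on slide 3. With a term for scan day the BN difference was 1.91 ± 0.44 and with a term for array brightness 0.79 ± 0.39.

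Of 23 other checkpoint and costimulation genes tested, 4 were higher and 3 lower in BN and 2 were higher in SD. Tnfrsf4, the T cell costimulatory receptor OX40, rose by 1.00 ± 0.13 in BN (adjusted p = 9.28e-05) and by 0.57 ± 0.12 in SD (adjusted p = 0.0142, and 0.0557 without SD control 2). Tnfrsf14, the receptor HVEM, rose by 0.71 ± 0.13 in BN (adjusted p = 0.000946). The B7 family gene Cd276 fell by 0.83 on the log2 scale in BN (adjusted p = 0.000168). Lag3, an inhibitory receptor of T cells, rose by 0.70 ± 0.16 in SD (adjusted p = 0.0220), a call lost when any of 5 SD arrays was left out (adjusted p from 0.0562 to 0.0707).

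Ubd, the ubiquitin-like modifier, had the widest range of the 8 genes. Ratios of Ubd on the log2 scale were -0.01, 0.25, -1.46 and 0.72 on the BN control arrays and 3.88, 0.79, 2.89 and 2.98 on the BN procainamide arrays. BN procainamide 2, the highest array for the other 7 genes, was the lowest treated array here and barely above BN control 4. The difference was 2.76 ± 0.54, or 6.78-fold (3.07 to 14.96). The SD controls were at -0.55, -0.80, 0.46, -0.26 and 0.21 and the treated arrays at 1.38, 1.73, 2.51, 1.47 and 2.57. These groups were well apart, and the difference was 2.12 ± 0.48, or 4.34-fold (2.14 to 8.81).

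For Ubd the reference channel was not level. By the labels Cy3 held the same RNA on all arrays of a strain, yet the normalised Cy3 signal of Ubd lay between 12.70 and 14.94 in BN and between 13.05 and 14.29 in SD, and it was low where Cy5 was high. The unnormalised Cy3 signal, a mean over 10 spots, likewise ranged from 14.15 to 14.62 on BN control arrays and from 12.61 to 14.02 on BN procainamide arrays. In Cy5 alone the differences were 1.41 ± 0.33 in BN and 1.34 ± 0.30 in SD. The part of the reference channel in the log2 ratios of Ubd was not tested. Of 14 other genes of ubiquitin-like modifiers, 1 was higher in BN, the ubiquitin-activating enzyme Uba1 (0.45 ± 0.11, adjusted p = 0.00809, and 0.0916 in Cy5 alone, at 0.17). In SD 1 was higher, Ube2l6, the conjugating enzyme for Isg15 (0.84 ± 0.21, adjusted p = 0.0367), a call kept without 3 of the 10 SD arrays and lost in Cy5 alone (0.56, adjusted p = 0.0692).

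Sod2, which turns superoxide into hydrogen peroxide in mitochondria, was at -0.16, -0.13, -0.28 and -0.28 on the BN control arrays and at 0.86, 1.26, 0.75 and 0.85 on the BN procainamide arrays. The controls were close together and every treated array was well above them. The difference was 1.14 ± 0.13, or 2.21-fold (1.83 to 2.66). The SD controls were at -0.16, -0.31, 0.08, -0.21 and -0.01 and the treated arrays at 0.03, 0.35, 0.58, 0.11 and 0.13. SD procainamide 1 lay below SD control 3, and the difference was 0.36 ± 0.11, or 1.29-fold (1.09 to 1.52). Of 22 other genes that remove superoxide or peroxide, 3 were higher and 1 lower in BN, with a median of -0.072. The 3 were thioredoxin (Txn1, 1.27 ± 0.14, adjusted p = 1.45e-05), the peroxiredoxin Prdx5 (0.59 ± 0.14, adjusted p = 0.00659) and the cytosolic dismutase Sod1 (0.42 ± 0.11, adjusted p = 0.00999). In Cy5 alone Txn1 was at 0.36 (adjusted p = 0.00589) and Prdx5 at -0.02 (adjusted p = 0.917). In SD only Txn1 was called, at 0.89 ± 0.12 (adjusted p = 0.00152), and at 0.45 in Cy5 alone (adjusted p = 0.00944).

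Cxcl16 binds the receptor Cxcr6 on T cells. Its log2 ratio was -0.03, -0.03, -0.17 and 0.25 on the BN control arrays and 0.73, 1.33, 0.81 and 0.99 on the BN procainamide arrays. The groups were apart, and the difference was 0.96 ± 0.13, or 1.94-fold (1.60 to 2.37). The SD controls were at 0.03, -0.10, 0.17, 0.07 and 0.01 and the treated arrays at 0.26, 0.39, 0.72, 0.21 and 0.26. These groups were apart by a narrow margin, with a difference of 0.33 ± 0.12, or 1.26-fold (1.06 to 1.5), and 0.19 in Cy5 alone. Its receptor Cxcr6 was at -0.39 to -0.13 on the BN control arrays and 0.97 to 1.5 on the treated ones, and rose by 1.46 ± 0.20 (adjusted p = 0.000136). In SD, Cxcr6 was at -0.43 to 0.46 on the controls and 0.02 to 0.90 on the treated arrays and was not called. Of the 10 genes of the receptor, of shedding enzymes and of scavenger receptors, 3 were higher and 2 lower in BN and 1 was lower in SD. The membrane chemokine Cx3cl1 rose by 0.77 ± 0.20 in BN (adjusted p = 0.0121). The scavenger receptor Cd36 fell by 0.70 in BN (adjusted p = 0.000576) and by 0.40 in SD (adjusted p = 0.0476), and the SD call was kept without only 1 of the 10 SD arrays and lost in Cy5 alone (-0.26, adjusted p = 0.0529).

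Casp4, the inflammatory caspase, differed least among the 7 genes that were higher. Its log2 ratio was -0.16, -0.07, -0.12 and 0.10 on the BN control arrays and 0.22, 0.60, 0.49 and 0.18 on the BN procainamide arrays. The groups did not overlap, by a narrow margin, and the difference was 0.43 ± 0.11, or 1.35-fold (1.15 to 1.59). The SD values were 0.02, -0.06, 0.17, 0.16 and 0.26 on the controls and 0.40, 0.33, 0.13, 0.09 and 0.45 on the treated arrays. They overlapped, since SD procainamide 3 and 4 lay among the controls, with a difference of 0.17 ± 0.10. Of 15 other genes of inflammatory caspases and pyroptosis, 5 were higher and 0 lower in BN, with a median of 0.30, and 1 was higher in SD, with a median of 0.018. Casp1, which matures interleukin 1 beta, rose by 0.65 ± 0.12 in BN (adjusted p = 0.00153, and 0.190 in Cy5 alone, at 0.30). Its relative Casp12 rose by 0.59 ± 0.13 (adjusted p = 0.00406) and the cytokine gene Il1a by 1.01 ± 0.21 (adjusted p = 0.00257). Gsdmd, the pore-forming substrate of Casp4, was not analysed here.

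Lgals9 was the gene of the 8 that was lower with the drug. Its log2 ratio was 1.02, -0.95, -0.81 and -0.96 on the BN control arrays and -0.94, -0.58, -1.54 and -1.44 on the BN procainamide arrays. BN control 1 stood alone above 0, and the other 3 controls lay within the treated range. The difference was -0.70 ± 0.32, or 1.63-fold lower, and -0.22 ± 0.17 without BN control 1. SD controls were at -0.17, 0.10, 0.18, 0.15 and -0.11 and treated arrays at -0.10, -0.21, -0.30, -0.13 and -0.16. The SD groups overlapped, with a difference of -0.21 ± 0.29 (95% interval -0.82 to 0.40).

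On BN control 1 the channels of Lgals9 stood the other way round from the rest of the strain. Its Cy5 was 15.65 and its Cy3 14.63, while on the other 7 BN arrays Cy5 lay between 13.78 and 14.52 and Cy3 between 15.10 and 15.43. The related galectin gene Lgals5, which is known from rat red cell precursors, was at 1.36 on BN control 1 and between -1.97 and -0.72 on the other BN arrays. The median log2 ratio of 10 erythroid marker genes was 1.32 on BN control 1, ranged from -1.50 to -0.12 over the other 7 BN arrays and from -0.79 to 0.26 over SD arrays. The part of red cell RNA in the values of Lgals9 was not tested. On the SD control 1 array Lgals9 was at -0.17. Of 11 other galectins and galectin ligands, 2 were higher and 2 lower in BN. Lgals3, made by macrophages, rose by 1.04 ± 0.25 (adjusted p = 0.00721), the adhesion receptor Cd44 rose by 0.63 ± 0.15 (adjusted p = 0.00537) and the gut galectin Lgals4 fell by 0.98 (adjusted p = 0.00253). In Cy5 alone Lgals3 was at 0.35 (adjusted p = 0.0598) and Cd44 at 0.20 (adjusted p = 0.201). In SD the galectin-binding gene Lgals3bp rose by 0.88 ± 0.20 (adjusted p = 0.0232), a call lost when any of 5 SD arrays was left out (adjusted p from 0.0549 to 0.0815).

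Upstream of these effectors, 8 of 19 genes of interferon gamma and TNF signalling were higher and 0 lower in BN, with a median of 0.35, and 3 were higher and 0 lower in SD, with a median of 0.22. Ifng, the cytokine itself, was at -0.65 to -0.08 on the BN control arrays and 1.95 to 4.19 on the treated ones, and rose by 3.43 ± 0.44 (adjusted p = 7.19e-05). In SD it was at -0.82 to 0.40 on the controls and 1.40 to 3.15 on the treated arrays, and rose by 2.17 ± 0.39 (adjusted p = 0.00712). Irf1, a transcription factor of the interferon response, rose by 1.47 ± 0.13 in BN (adjusted p = 1.44e-06) and 0.89 ± 0.11 in SD (adjusted p = 0.000932). In Cy5 alone Irf1 was at 0.69 in BN and 0.57 in SD and kept both calls (adjusted p = 7.39e-05 and 0.00326). Over all 9 lists, 31 of 156 genes were higher and 10 lower in BN, and 10 were higher and 2 lower in SD, with 8 higher in both strains. Of all tested genes, 8.99% were higher and 13.8% lower in BN, and 1.43% and 1.76% in SD. The lists were chosen with earlier results of these data known, so nothing is read from these counts. With a term for scan day 5 of the 156 genes were called in BN, among them Irf1, Txn1, Cxcr6 and Tnfrsf4, and with a term for array brightness 10. In SD these counts were 5 and 10. In BN Ifng was not called with scan day, at 3.08 (adjusted p = 0.0626 by limma), and was called with array brightness, at 2.55 (adjusted p = 0.0207).

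**Figure D2:**
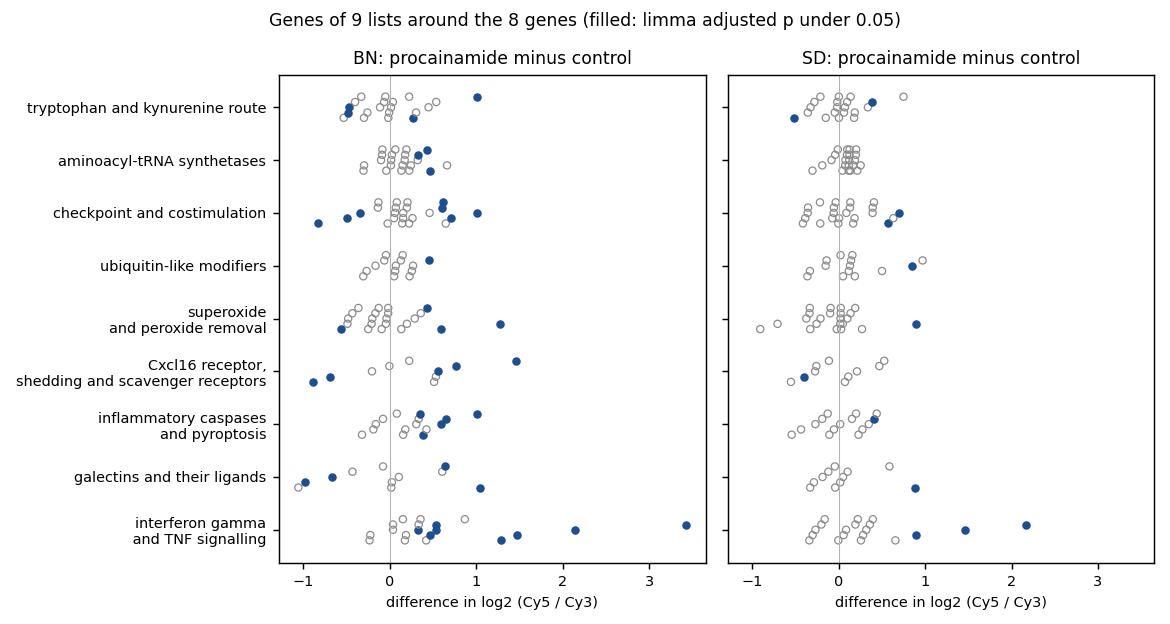
Difference in log2 ratio between procainamide and control (x axis) for the tested genes of 9 lists around the 8 genes (y axis), in BN and in SD. Filled points passed limma at adjusted p under 0.05, 31 higher and 10 lower in BN and 10 higher and 2 lower in SD. Of all tested genes, 8.99% were higher and 13.8% lower in BN, and 1.43% and 1.76% in SD. The point farthest right in BN is Ifng at 3.43.

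Across the 18 arrays, the 2 other genes whose log2 ratio was most like that of Wars1 were Irf1 (r = 0.965) and Txn1 (r = 0.963). For Sod2 they were the argininosuccinate synthase Ass1 (r = 0.979) and Entpd1 (r = 0.969), and for Cxcl16 again Ass1 (r = 0.973), with the complement gene C3 (r = 0.952). Cd274 was most like Mbtps2 (r = 0.968) and N4bp2l1 (r = 0.943), and Lgals9 like Lgals5 (r = 0.979) and Tex10 (r = 0.907). The likeness was looser for Ido1, at 0.887 for Pak1 and 0.884 for Scfd1, for Casp4, at 0.882 for Ppa1 and 0.865 for Mmp7, and for Ubd, at 0.869 for Il21 and 0.864 for Plaat3. These correlations describe arrays that share their groups, references and slides.

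Within groups Wars1, Sod2 and Cxcl16 varied together, and the other pairs less so. The deviations of 28 gene pairs from their group means over the 18 arrays correlated between -0.21 (Cd274 and Ubd) and 0.83 (Wars1 and Sod2), with a median of 0.19, and 19 were above 0. Sod2 and Cxcl16 were at 0.77, as were Wars1 and Cxcl16. SD control 3 was the highest control array for 7 of the 8 genes, and SD procainamide 3 the highest treated array for Ido1, Wars1, Sod2 and Cxcl16. The median of the 8 log2 ratios ranged from -0.25 to -0.083 over BN control arrays, 0.78 to 1.30 on the BN procainamide arrays, -0.29 to 0.17 on the SD control arrays and 0.16 to 0.65 on the SD procainamide arrays. The BN ranges are far apart and the SD ranges meet.

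Markers of blood cells and other tissues differed beside these genes. In BN, limma called 2 of 11 neutrophil, 2 of 12 monocyte and macrophage, 1 of 12 T cell, 3 of 7 plasma cell and 2 of 9 NK cell genes higher and none of these lower, where 8.99% of all tested genes were higher and 13.8% lower. Of 8 dendritic cell genes 2 were higher and 1 lower, and of 11 eosinophil, basophil and mast cell genes 2 and 3. Lower in BN were 7 of 11 endothelial and connective tissue, 5 of 9 platelet, 2 of 7 gland and eye, 1 of 8 B cell and 1 of 10 erythroid genes. In SD, 2 of 9 NK cell genes and 1 of 8 dendritic cell genes were higher, and 4 of 11 endothelial and connective tissue genes and 1 of 7 gland and eye genes were lower, beside 1.43% and 1.76% of all tested genes. The median log2 ratio of the neutrophil genes was -0.65 to 0.07 on BN control and -0.49 to 0.94 on BN procainamide arrays, and that of monocyte and macrophage genes was -0.39 to 0.12 and -0.42 to 0.54. In the same order, dendritic cell genes were at -0.31 to -0.09 and 0.02 to 0.31, plasma cell genes at -0.39 to 0.28 and 0.04 to 0.74, and NK cell genes at -0.47 to 0.03 and -0.21 to 0.37. Dendritic cell medians did not overlap between the groups, and those of the other 4 of these lists did. The median BN difference was 0.046 for dendritic cell, 0.76 for neutrophil, 0.10 for monocyte and macrophage, 0.23 for plasma cell and 0.24 for NK cell genes. For neutrophil genes only BN procainamide 1 (-0.49) lay among the controls, and the SD median difference was -0.18. Like those of dendritic cells, endothelial and connective tissue medians (-0.145 to 0.098 and -0.717 to -0.395) did not overlap between the BN groups. The same held for eosinophil, basophil and mast cell medians (-0.048 to -0.019 and -0.290 to -0.058), and both were lower with the drug. The remaining lists overlapped. The part of cell numbers in the differences of the 8 genes was not tested.

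The BN difference was larger than the SD difference for 7 of the 8 genes. Both use arrays already described, so their values stand side by side. The difference between them was 1.03 ± 0.38 (95% interval 0.23 to 1.83) for Ido1, 0.89 ± 0.39 (0.065 to 1.71) for Cd274, 0.78 ± 0.17 (0.41 to 1.14) for Sod2 and 0.63 ± 0.18 (0.25 to 1.01) for Cxcl16. It was 0.50 ± 0.22 (0.03 to 0.96) for Wars1, 0.64 ± 0.73 (-0.89 to 2.18) for Ubd, 0.26 ± 0.15 (-0.057 to 0.58) for Casp4 and -0.49 ± 0.43 (-1.40 to 0.42) for Lgals9. Since these ratios chose the genes, the intervals show the precision of each value and are no test. The median was 0.64 beside 0.0051 over all tested genes, of which 10.7% were called (3.15% higher and 7.54% lower in BN).

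Some of these sizes turned on single arrays or on the model. Without BN control 4 the Ido1 value was 0.64 ± 0.24, and without BN control 1 the Lgals9 value was -0.01 ± 0.22 (0.04 without control 1 of both strains). Without BN procainamide 2 the Ubd value was 1.26 ± 0.59, and in Cy5 alone it was 0.06 ± 0.44. A term for scan day gave 1.84 ± 0.61 for Cd274, 0.49 ± 0.28 for Sod2 and 0.32 ± 0.30 for Cxcl16. A term for array brightness gave 0.36 ± 0.50 for Ido1, 0.29 ± 0.52 for Cd274 and 1.96 ± 0.95 for Ubd. For Wars1, Cy5 alone gave 0.82 ± 0.19.

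Among the 156 genes of the lists, 7 differed between the strains' responses, where 10.7% of all tested genes did (3.15% higher and 7.54% lower in BN). Nothing is read from this count beside those shares. All 7 genes had a higher drug difference in BN than in SD. They included Cxcr6, the receptor of Cxcl16, at 0.99 ± 0.27 (adjusted p = 0.0242), Casp12 at 0.78 ± 0.18 (adjusted p = 0.00896), the galectin ligand gene Cd44 at 0.75 ± 0.20 (adjusted p = 0.0197) and the TNF receptor gene Tnfrsf1b at 0.63 ± 0.13 (adjusted p = 0.00623). The Cxcr6 call was lost without BN control 4, BN procainamide 2 or BN procainamide 4 (adjusted p from 0.0525 to 0.0575). Tnf (0.89 ± 0.26, adjusted p = 0.0364), Ctla4 (0.81 ± 0.25, adjusted p = 0.0429) and Irf1 (0.58 ± 0.17, adjusted p = 0.0386) kept their calls without 7, 6 and 6 of the 18 arrays. From SD control to SD procainamide, the median log2 ratio fell for Tnfrsf1b (-0.12 to -0.44), Casp12 (-0.07 to -0.31) and Ctla4 (-0.11 to -0.28). It rose for Cxcr6 (0.09 to 0.46), Tnf (0.15 to 0.57) and Irf1 (-0.14 to 0.78). For Cd44 the BN drug difference alone was 0.63. None of the 7 kept its call with a term for scan day or for array brightness, where limma called 0 of 156 genes and 8 and 10 had an unadjusted p under 0.05. The share of all tested genes at that unadjusted p was not counted, so nothing is read from the unadjusted counts. With scan day Cxcr6 was at 1.30, Ctla4 at 0.85 and Irf1 at 0.61, no smaller than without it, Casp12 was at 0.58 and Tnfrsf1b at 0.45, and Cd44 (0.077) and Tnf (-0.0020) were near 0. With array brightness the 7 lay between 0.20 for Ctla4 and 0.77 for Tnf. In Cy5 alone Cd44 was at 0.056 (adjusted p = 0.821), Irf1 at 0.13 (adjusted p = 0.477) and Ctla4 at 1.24 (adjusted p = 0.00132).

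**Figure D3:**
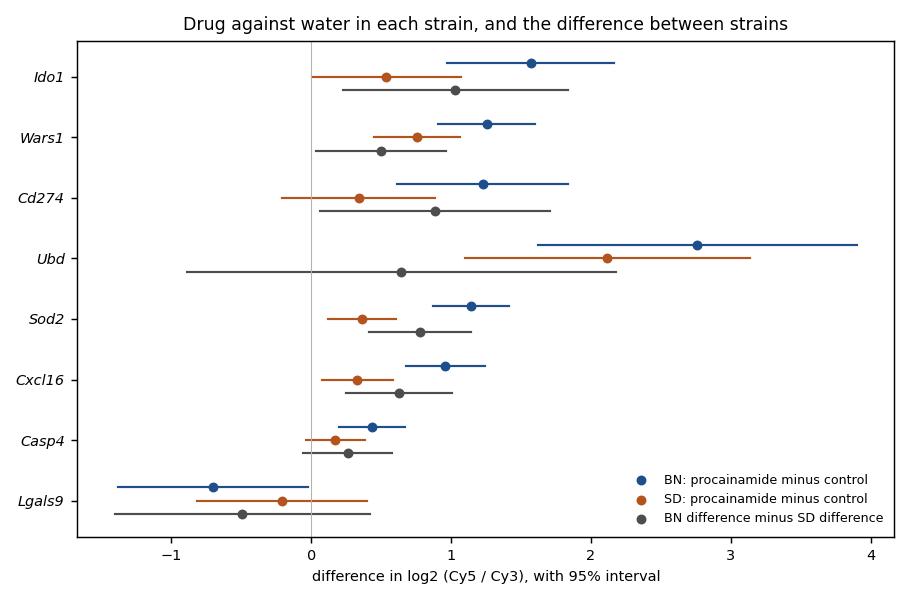
Difference in log2 ratio (x axis), with 95% interval, for each of the 8 genes (y axis): procainamide minus control in BN and in SD, and the BN difference minus the SD difference. The BN point lies right of the SD point for 7 genes, and the widest interval of the strain difference is that of Ubd, from -0.89 to 2.18.

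Water-treated animals of the 2 strains were compared in the normalised Cy5 signal. The 8 genes were not chosen on this comparison, so tests are given. The log2 ratios that chose them do include the Cy5 signal of these control arrays, however. The p-values of the 8 genes are therefore not independent of that choice. 3 of the 8 genes passed the threshold, while 36.7% of all tested genes did (16.6% higher and 20.1% lower in BN). Sod2 and Lgals9 did not overlap between strains, as was the case for 15.1% of all tested genes with BN higher and 19.4% with BN lower. Sod2 was at 12.08 ± 0.12 (log2 Cy5, mean ± SD, n = 4) in BN and 12.78 ± 0.15 (n = 5) in SD, a difference of -0.71 ± 0.14 (SE, adjusted p = 0.00108 by limma), with no overlap. Lgals9 was at 14.71 ± 0.63 in BN and 14.11 ± 0.12 in SD, a difference of 0.60 ± 0.21 (adjusted p = 0.0296 by limma). The Lgals9 groups did not overlap, but the adjusted p was 0.0740 without BN control 1, where the difference was 0.29, 0.0561 without SD control 1 and 0.0596 without SD control 5. Wars1 was at 14.07 ± 0.26 in BN and 14.43 ± 0.08 in SD, a difference of -0.36 ± 0.13 (adjusted p = 0.0416 by limma). The Wars1 call was lost without any of 8 of the 9 control arrays (adjusted p from 0.0514 to 0.116), and its second probe gave -0.27 (adjusted p = 0.236).

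The other 5 genes did not pass. Cxcl16 differed by -0.27 ± 0.11 (adjusted p = 0.0552), and Ubd by 0.55 ± 0.31 (adjusted p = 0.175, and 0.0251 without BN control 3, where the difference was 0.88). Ido1, at -0.22 ± 0.26, Cd274, at -0.15 ± 0.25, and Casp4, at -0.03 ± 0.09, had adjusted p of 0.522, 0.649 and 0.790 by limma. The control arrays of the strains were on different slides and scan days. With a term for scan day Sod2 was at -0.26 ± 0.20 (adjusted p = 0.616), Lgals9 at 0.57 ± 0.36 (adjusted p = 0.529) and Wars1 at -0.03 ± 0.21 (adjusted p = 0.967). In the lists, 19 of 156 genes were higher and 32 lower in BN controls, among them the extracellular dismutase Sod3 (-0.83, adjusted p = 0.000533), Sod1 (-0.40, adjusted p = 0.00570), Ctla4 (-0.91, adjusted p = 0.000884) and the tryptophan carrier subunit Slc7a5 (0.74, adjusted p = 0.000423). With a term for scan day limma called 0 of them, and 13 had an unadjusted p under 0.05, a count from which nothing is read.

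The order of the 4 groups in Cy5 was the same for 6 of the 8 genes, namely BN procainamide, SD procainamide, SD control and BN control from high to low. The genes were chosen on ratios from these arrays and the share of all tested genes with this order was not counted. Nothing is therefore read from the shared order, and the values are descriptions. Ido1 stood at 10.41 ± 0.23, 9.62 ± 0.26, 9.03 ± 0.32 and 8.80 ± 0.75 (mean ± SD) in that order. For Ido1 only the top neighbours did not overlap. Wars1 stood at 15.35 ± 0.18, 14.89 ± 0.26, 14.43 ± 0.08 and 14.07 ± 0.26, and here the treated and control SD groups did not overlap. Sod2 stood at 13.39 ± 0.23, 13.09 ± 0.30, 12.78 ± 0.15 and 12.08 ± 0.12, and only BN control was apart from its neighbour. Cxcl16 (14.32 ± 0.15, 14.03 ± 0.23, 13.85 ± 0.09, 13.57 ± 0.13), Casp4 (14.87 ± 0.14, 14.64 ± 0.13, 14.50 ± 0.07, 14.46 ± 0.11) and Cd274 (10.25 ± 0.64, 9.69 ± 0.21, 9.53 ± 0.30, 9.38 ± 0.37) overlapped between all neighbours. Ubd had 15.90 ± 0.64 in BN procainamide and 15.28 ± 0.32 in SD procainamide, then 14.49 ± 0.70 in BN control and 13.94 ± 0.37 in SD control. Lgals9 ran from 14.71 ± 0.63 in BN control through 14.12 ± 0.31 in BN procainamide and 14.11 ± 0.12 in SD control to 13.96 ± 0.07 in SD procainamide. For Ubd and Lgals9 as well, all neighbours overlapped.

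**Figure D4:**
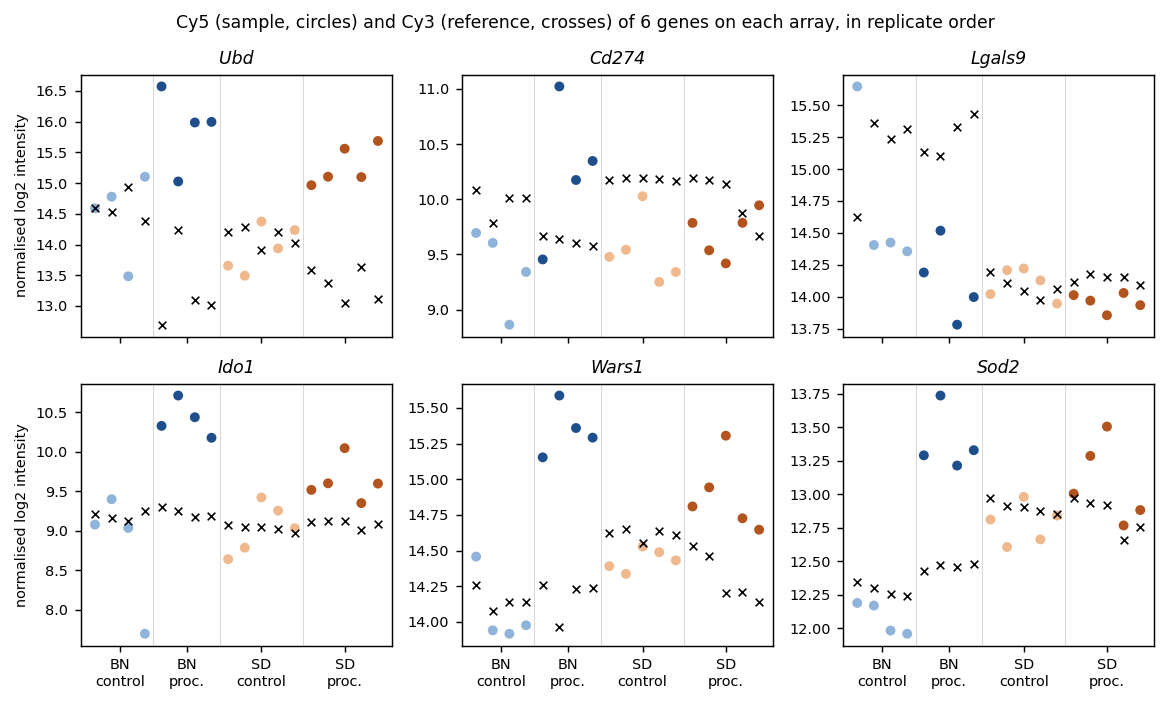
Normalised log2 intensity (y axis) of the sample channel Cy5 (circles, coloured by group) and the reference channel Cy3 (crosses) for 6 of the genes on each array (x axis, replicate order within group). Cy3 of Ubd runs from 12.70 to 14.94 over the BN arrays and is low where Cy5 is high, and on BN control 1 the Cy5 of Lgals9 (15.65) is above its Cy3 (14.63).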

How the data were processed

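Blood RNA of 8 BN samples (4 control) and 10 SD samples (5 control) was measured on 18 Agilent 2-colour arrays over 3 slides and 2 scan days. The deposited intensity values are median spot and local background brightness from Feature Extraction 10.7.1.1, per the file headers, and the deposited log10 ratios are that software's processed Cy5 over Cy3. The authors' deposited log2 value table does not state its scale, centring or direction; its values follow log2 of processed Cy5 over Cy3, and it was used only as an alternative. From the median signals, background was corrected by normexp (offset 50), each array's ratios were normalised by loess fitted without its control spots (weight 0), and spots were averaged per probe, with limma 3.58.1 in R 4.3.3. Signals of Cy5 and Cy3 alone were further scaled between arrays by the average quantile method. Flagged spots were left out, as was a probe not well above background in Cy5 on at least 4 arrays, which left 26446 of 30367 probes.

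A group means model over all 18 arrays (14 residual degrees of freedom) gave each difference, with Benjamini-Hochberg adjustment over all probes tested and a threshold of 0.05. It was tried on simulated data with independent noise per probe. That trial held no slide, scan day or reference channel effects, so it cannot speak to them. A gene is its brightest probe, and symbols come from RefSeq accessions. The 8 genes, the gene lists and the tests were chosen with earlier results of these data known. Named beside the 8 genes are up to 3 genes per list and comparison with the smallest p past the threshold, and the 2 genes most correlated with each. Whether equal replicate numbers pair samples is not in the labels, and samples were treated as unpaired. Deviations of same-numbered arrays correlated from -0.52 to 0.13, which cannot decide it because slide and scan day also enter them. Array data carry no counts, so the number of arrays limits the precision. Alternatives were other background, scaling, filter and probe choices, terms for scan day, brightness, slide and replicate, and leaving out each array. Lewis rats, which the series also names, were not analysed here. Some listed genes are not reported here.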

Additional observations from a re-analysis of the deposited data

Results flagged for a closer look

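Of 32 groups of arrays examined for the 8 genes, 2 held an array far from the rest, where chance flags about 1 in 20 groups. For Lgals9, BN control 1 was at a log2 ratio of 1.02 and the nearest other BN control at -0.81, a gap of 0.925 of the group's whole range. For Ido1, SD procainamide 3 was at 0.92 and the nearest other treated SD array at 0.51, a gap of 0.715 of the range.

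In all, 7 of 156 genes of the surrounding lists had a drug difference that differed between BN and SD by limma's interaction term, each higher in BN. Over all tested genes 10.7% were called (3.15% higher and 7.54% lower in BN), so nothing is read from the count. The log2 difference was 0.99 for Cxcr6, 0.89 for Tnf, 0.81 for Ctla4, 0.78 for Casp12, 0.75 for Cd44, 0.63 for Tnfrsf1b and 0.58 for Irf1. Casp12, Cd44 and Tnfrsf1b were the 3 that kept the call without any single array, and no gene kept it with a term for scan day or for array brightness.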

How the results depend on the processing

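The median difference of the 8 genes stayed between 0.97 and 1.31 in BN over 22 alternatives, between 0.25 and 0.45 in SD over 25 and between 0.40 and 0.83 for the strain difference over 32. The Cy5 median between controls lay between -0.28 and 0.00099 over 20, the last with a term for array brightness. With a term for scan day, list genes past the threshold numbered 5 of the main 41 in BN, 5 against 12 in SD, 0 against 7 for the strain difference and 0 against 51 between controls, where limma had 8 and 13 at an unadjusted p under 0.05 in those with 0. With array brightness the counts were 10 in BN, 0 for the strain difference (10 unadjusted) and 6 between controls. Nothing is read from the unadjusted counts, since the share of all tested genes was not counted. Slide as a random block left 12 between controls, median centring 7 in SD, and Cy5 alone gave 38 for the strain difference. Replicate numbers as a block gave 27 in BN, 3 in SD and 1 for the strain difference, and whether the numbers pair samples is not in the labels. Leaving out 1 array gave 33 to 48 in BN, 5 to 12 in SD, 3 to 13 for the strain difference and 39 to 52 between controls. In the drug comparisons of the lists, signs turned for Prdx5 in BN in Cy5 alone (-0.0237) and for Tnf in the strain difference with scan day (-0.0020). Of the 8 genes, Lgals9 turned in the strain difference without control 1 of both strains (0.04). Between controls, Ido1 turned with scan day (0.02), with brightness (0.21) and without BN control 4 (0.14), Cd274 with brightness (0.33) and without BN control 3 (0.02), Cxcl16 with scan day (0.07) and Casp4 with processed signals (0.0071), none of which were called. Among the named list genes, signs between controls turned with scan day for P4hb (-0.0403), Ifngr2 (0.0143) and Sod1 (0.0334), with the scanner software's processed signals for Qars1 (0.0814), Aimp1 (0.0902), Cd36 (0.0712) and Sod1 (0.0456), and with the mean over probes for Cd36 (0.23). Of the probe calls in BN, 35.3% were higher, against 46.6% in the authors' table, 43.7% with processed signals and 43.4% in Cy5 alone. The causes were not tested.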
